A study of Homo sapiens with 24 samples.

Results

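The ERBB family of receptor tyrosine kinases has 4 members, EGFR, ERBB2 (also called HER2), ERBB3 and ERBB4. All 4 were found by gene symbol among the 26364 genes of the count tables. The transcript measures below centre on them and on genes linked to them by function, regulation or position. The cells were T-47D, an established estrogen receptor-positive (ER+) breast cancer line. In these clones one copy of the estrogen receptor gene ESR1 had been edited at its own locus to Y537S or D538G, or the gene had been left wild-type (WT). Each of the 3 genotypes was represented by 2 clones, so 24 libraries covered 12 conditions, and a replicate here is a clone. A clone carries its genotype in every library, so genotype and clone origin cannot be told apart beyond the spread between 2 clones. Counts per gene hold no allele, and the genotype labels were therefore not checked here.

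All cells were kept in hormone-deprived medium and were transfected for 24 h with 10 nM of a small RNA before poly-A RNA was sequenced. WT cells were given a mimic negative control, or else a miR-331-3p, miR-181c-5p or miR-301b-3p mimic. Y537S cells received the mimic negative control, the miR-301b-3p or miR-331-3p mimic, an inhibitor negative control or an inhibitor of let-7f-5p. For D538G cells the set was the mimic negative control and the mimics of miR-181c-5p and miR-301b-3p. This gives 8 comparisons of a treatment with its negative control: 3 in Y537S cells, 2 in D538G cells and 3 in WT cells. A further comparison, between both negative controls in Y537S cells, serves as a background. Comparisons within a genotype share the same mimic control libraries, so their results are not independent of one another.

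ERBB receptors sit in the plasma membrane, bind growth factors of the EGF and neuregulin families and signal as pairs through the RAS-ERK and PI3K-AKT pathways. ERBB2 has no known ligand of its own and ERBB3 has little kinase activity, so that ERBB2-ERBB3 pairs combine the kinase of one with the ligand binding and PI3K docking sites of the other. In luminal breast cells ERBB2 and ERBB3 promote growth, ERBB4 is linked to differentiation, and high ERBB signaling is a known route of resistance to endocrine therapy. A microRNA lowers its target mRNAs by pairing its seed, bases 2 to 8 from its 5′ end, with the 3′ untranslated region (3′UTR), and ERBB2 has been described as a target of miR-331-3p.

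The mature sequences of the 4 small RNAs, from RefSeq, are given first because the seed, in capitals, sets which 3′UTRs can pair with each. No pair of them shared a seed.
hsa-miR-331-3p: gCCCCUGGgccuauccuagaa
hsa-miR-301b-3p: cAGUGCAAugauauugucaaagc
hsa-miR-181c-5p: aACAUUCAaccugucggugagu
hsa-let-7f-5p: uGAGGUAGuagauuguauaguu

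The 3′UTR of the canonical transcript of each receptor (GENCODE 44 on hg19) was searched, on the transcript strand only, for the 7 letters that pair with bases 2 to 8: CCAGGGG for miR-331-3p, TTGCACT for miR-301b-3p, TGAATGT for miR-181c-5p and CTACCTC for let-7f-5p. The ERBB2 3′UTR, of 614 bases, held 2 matches to miR-331-3p and none to the other small RNAs. They are shown because ERBB2 is the receptor described as its target, and the capitals mark the letters that pair with the seed.
ERBB2 miR-331-3p match 1, chr17:37884385-37884413 (+): ccctccgaccacttCCAGGGGaacctgcc
ERBB2 miR-331-3p match 2, chr17:37884805-37884833 (+): gatgaaataaagacCCAGGGGgagaatgg

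The first match lay at bases 102 to 108 of the ERBB2 3′UTR and was followed by an A, and the second lay at bases 522 to 528. Among 2293 3′UTRs within 25% of the same length, 8.85% held at least 1 match to miR-331-3p and 0.654% held as many as ERBB2; over all 3′UTRs the first share was 14.1%. ERBB3 held 1 match to miR-301b-3p at bases 1076 to 1082 of 1450, and ERBB4, on the minus strand of chromosome 2, held 1 match to miR-331-3p at bases 5083 to 5089 of 7898. Each is shown because its receptor was called with the same mimic in at least 1 genotype. The calls meant are those of the fit without clone pairing and without correction for guanine and cytosine (GC) content. ERBB2 with miR-331-3p was not called in that fit. As given below, ERBB2 was called in WT cells with either the pairing or the correction, and the ERBB4 call was lost with the correction.
ERBB3 miR-301b-3p match, chr12:56496901-56496929 (+): actgtttcttgtttTTGCACTgaatcaag
ERBB4 miR-331-3p match, chr2:212243243-212243271 (−): ggcattgtgtcgggCCAGGGGcccttgtg

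For 3′UTRs of like length, 12.4% held a miR-301b-3p match where the length was that of ERBB3, and 36.4% held a miR-331-3p match where it was that of ERBB4. ERBB4 also held 1 match each to miR-301b-3p and miR-181c-5p, which 50.0% and 62.9% of 3′UTRs of its length held too. The EGFR 3′UTR, of 6011 bases, held 3 matches to miR-331-3p and 2 to miR-301b-3p, and 3.07% and 11.5% of 3′UTRs of its length held as many. No match to let-7f-5p was found in any of the 4 receptors, against 9.84% of all 3′UTRs. A match describes letters in a transcript and not a site in use, and mature microRNAs were not measured in these poly-A libraries.

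Each library held between 31379962 and 50526442 counts, with a median of 39878595. EGFR had 451 to 1320 counts in a library, ERBB4 1001 to 3224, ERBB2 10372 to 34978 and ERBB3 16471 to 44076, and all 4 passed the filter on low counts in every comparison. Luminal markers were abundant in every library, with a summed level of 11049 to 12333 CPM (counts scaled to a common library size) in WT, 10401 to 15304.5 CPM in Y537S and 9858 to 10777 CPM in D538G libraries over KRT8, KRT18, KRT19, EPCAM, CDH1, GATA3, FOXA1, PGR and ESR1. The D538G libraries lay below the WT libraries, and the Y537S libraries overlapped both. Summed levels were 47.4 to 81.0 CPM for fibroblast markers, nearly all from COL1A1, 2.41 to 5.70 CPM for leukocyte markers and at most 0.197 CPM for endothelial markers. Basal markers (KRT5, KRT14, KRT17 and TP63) summed to 4.21 to 8.47 CPM in WT, 0.335 to 1.73 CPM in Y537S and 0.536 to 1.33 CPM in D538G libraries, with TP63 at up to 8.25 CPM.

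ERBB2 and ERBB3 were the abundant receptors of these cells. On the scale of RPKM (CPM divided by the transcript length in kilobases), which allows genes of different length to be set side by side, the median level over 24 libraries was 120.5 for ERBB2 and 118 for ERBB3, against 3.41 for ERBB4 and 1.91 for EGFR. Levels ranged from 56.1 to 189 RPKM for ERBB2, from 84.0 to 224 for ERBB3, from 1.98 to 7.30 for ERBB4 and from 1.25 to 3.19 for EGFR, so the 2 abundant receptors overlapped each other, as did the 2 scarce ones, and the pairs stood apart. The order within each pair differed between libraries, and the genotypes received different sets of treatments. ERBB2 stood above ERBB3 in 6 of 6 D538G libraries, in 2 of 8 WT libraries and in 1 of 10 Y537S libraries. Those WT and Y537S libraries had all received the miR-301b-3p mimic (ERBB2 to ERBB3 ratios of 1.39 and 1.32 in WT and 1.21 in Y537S cells). In mimic control libraries the ratio was 0.89 and 0.85 in WT, 0.78 and 0.62 in Y537S and 1.02 and 1.15 in D538G cells. With the length of all merged exons in place of the canonical transcript, the D538G count was 4 of 6, while the WT and Y537S counts stayed at 2 and 1. ERBB4 stood above EGFR in 8 of 8 WT and 9 of 10 Y537S libraries but in 1 of 6 D538G libraries, which became 5 of 6 with merged exons.

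**Figure D1:**
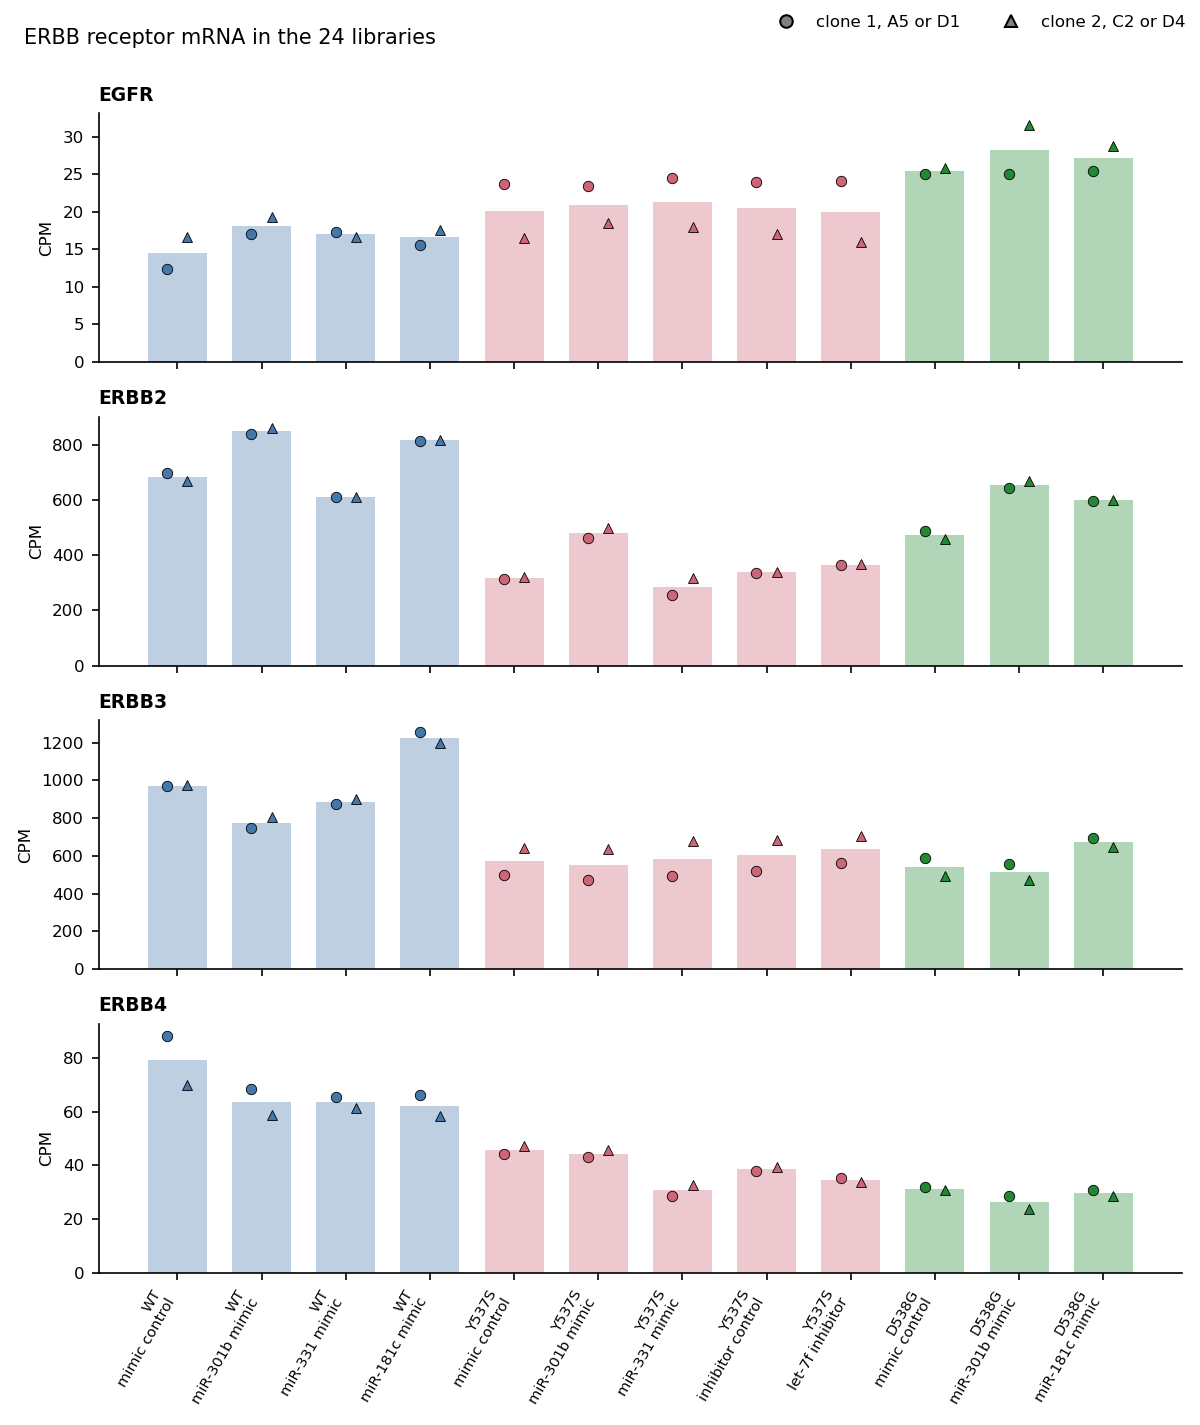
Level of each receptor in CPM (vertical axes, linear from 0, 1 panel per receptor) in the 12 conditions, with bars for the mean of 2 clones and a circle or triangle for each clone. In cells with the mimic negative control ERBB2 lay at 671 and 699 CPM in WT, 458 and 489 CPM in D538G and 314 and 322 CPM in Y537S cells.

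The first comparison asked how receptor levels differed between mutant and WT cells that had received only the mimic negative control. ERBB2 measured 699 and 671 CPM in the 2 WT clones, 314 and 322 CPM in the 2 Y537S clones and 489 and 458 CPM in the 2 D538G clones. WT was the highest and Y537S the lowest, and no genotypes overlapped. Lack of overlap, here and below, describes 2 clones per group. The share of all genes without overlap was not counted. ERBB2 decreased by 52.6% in Y537S relative to WT cells (log2 fold change −1.08 ± 0.08 (SE), edgeR adjusted p = 0.000155, n = 2 clones each) and decreased by 30.7% in D538G cells (−0.53 ± 0.06 (SE), edgeR adjusted p = 0.000273). From D538G to Y537S cells ERBB2 decreased by 31.9% (−0.55 ± 0.08 (SE), edgeR adjusted p = 0.0134). This last difference was not called without D538G clone A5 of the mimic control (−0.50, edgeR adjusted p = 0.124).

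ERBB3, the kinase-impaired partner of ERBB2, measured 971 and 974 CPM in WT, 497 and 643 CPM in Y537S and 590.2 and 491 CPM in D538G clones. Both mutants lay below WT and overlapped each other. ERBB3 decreased by 40.1% in Y537S (log2 fold change −0.74 ± 0.12 (SE), edgeR adjusted p = 0.00482) and decreased by 44.3% in D538G cells (−0.84 ± 0.08 (SE), edgeR adjusted p = 9.12e-05). Between the mutants the difference was 0.10 ± 0.15 (SE) on the log2 scale and did not pass the test (edgeR adjusted p = 0.734).

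ERBB4, which binds neuregulins and some EGF-type ligands, measured 88.3 and 69.8 CPM in WT, 44.4 and 47.1 CPM in Y537S and 31.8 and 30.8 CPM in D538G clones. The order WT, Y537S, D538G held without overlap. ERBB4 decreased by 41.0% in Y537S (log2 fold change −0.76 ± 0.13 (SE), edgeR adjusted p = 0.00484) and decreased by 60.3% in D538G cells (−1.33 ± 0.12 (SE), edgeR adjusted p = 4.39e-05). It was 1.48-fold higher in Y537S than in D538G cells (0.56 ± 0.10 (SE), edgeR adjusted p = 0.0262), a call lost without D538G clone A5 (0.60, edgeR adjusted p = 0.151) or D538G clone C2 (0.53, edgeR adjusted p = 0.135) of the mimic control.

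EGFR, the receptor of EGF and TGFA, went the other way. It measured 12.4 and 16.6 CPM in WT, 23.6 and 16.6 CPM in Y537S and 25.1 and 25.8 CPM in D538G clones, with Y537S clone 2 at the level of the higher WT clone. EGFR was up-regulated 1.76-fold in D538G cells (log2 fold change 0.82 ± 0.15 (SE), edgeR adjusted p = 0.00258) and did not pass the test in Y537S cells (0.50 ± 0.21 (SE), edgeR adjusted p = 0.122). Without Y537S clone 2 of the mimic control the Y537S value was 0.74 and was called (edgeR adjusted p = 0.00539), and without Y537S clone 1 the difference from D538G cells was −0.59 and was called (edgeR adjusted p = 0.0245), where both clones gave −0.32 (edgeR adjusted p = 0.309).

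Thus 3 of 4 receptors were called in Y537S against WT cells, 4 of 4 in D538G against WT cells and 2 of 4 between the mutants, where 29.0%, 38.9% and 6.19% of all genes tested were called. The share of all genes called lower was 12.7% for Y537S and 18.5% for D538G against WT cells, and 3 receptors were lower in each. The sum of the basal markers given above was lower in both mutants along with ERBB2, ERBB3 and ERBB4. KRT5 and KRT14, which define basal cells, stayed below 1 CPM in every library, as did KRT17, so the WT sum was mostly TP63. In D538G cells the sum of luminal markers was lower than in WT cells as well. That sum is weighted to abundant genes such as KRT8, KRT19 and GATA3, and ESR1 of the same list was higher in D538G cells, as given below. The part of either list in the receptor differences was not tested. In bulk RNA, fewer cells with a transcript and less transcript per cell cannot be told apart.

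**Figure D2:**
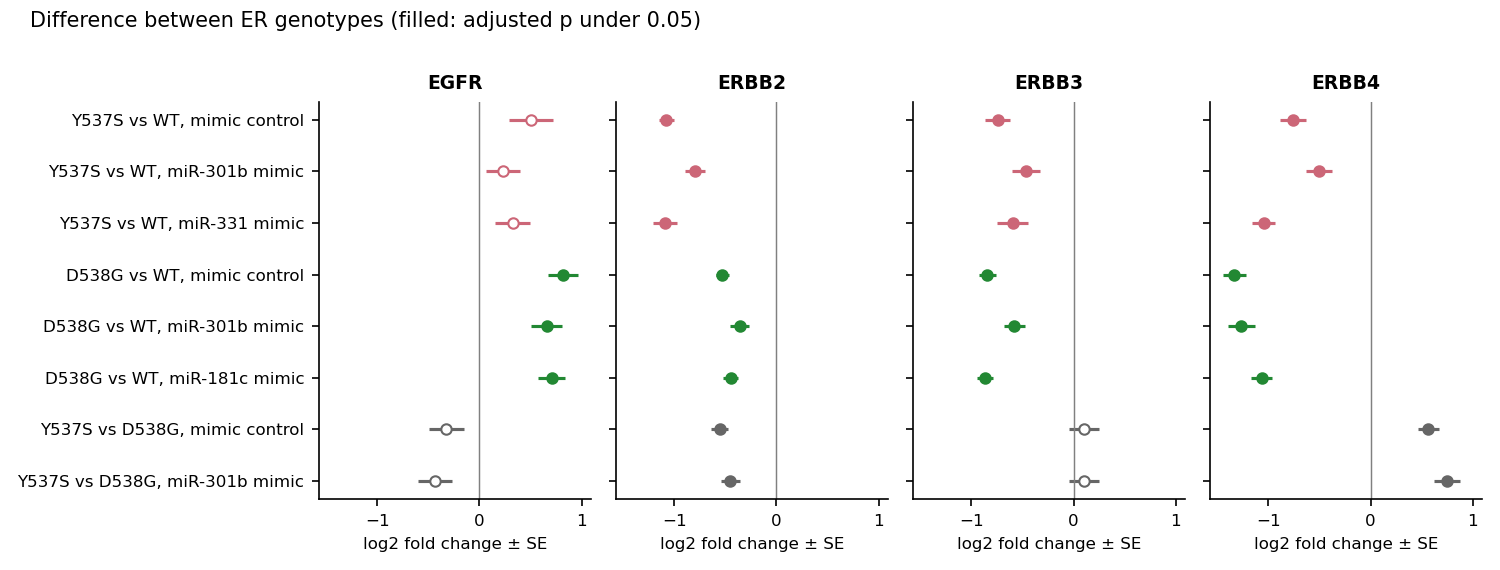
Log2 fold change between genotypes (horizontal axis, bars ± SE) for each receptor in cells with the mimic negative control and in cells with the same mimic. Filled points passed an edgeR adjusted p of 0.05; ERBB2, ERBB3 and ERBB4 lie left of 0 in each comparison of a mutant with WT cells, and EGFR lies right of 0.

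The genotype differences were also measured in cells that had received the same mimic. ERBB2, ERBB3 and ERBB4 were called lower in Y537S than in WT cells with the miR-301b-3p mimic (log2 fold changes −0.80, −0.47 and −0.50) and with the miR-331-3p mimic (−1.09, −0.60 and −1.04), where 20.4% and 49.6% of all genes were called. In D538G against WT cells they were called lower with the miR-301b-3p mimic (−0.36, −0.58 and −1.26) and with the miR-181c-5p mimic (−0.45, −0.87 and −1.07), where 31.4% and 34.9% of all genes were called. Between the mutants with the miR-301b-3p mimic, ERBB2 was called lower (−0.45, edgeR adjusted p = 0.0259) and ERBB4 higher (0.75, edgeR adjusted p = 0.0152) in Y537S cells, where 6.7% of all genes were called. EGFR was called higher in D538G cells with both mimics (0.66 and 0.71) and was not called in Y537S cells (0.23 and 0.32, edgeR adjusted p = 0.374 and 0.16).

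The next comparisons asked what each mimic or inhibitor did to the receptors within a genotype. With miR-331-3p, ERBB2 measured 613 CPM in both WT clones against 699 and 671 CPM with the mimic control. The treated clones lay below the control clones without overlap, at a per-clone log2 difference of −0.19 and −0.13. The fitted log2 fold change of −0.14 ± 0.05 (SE) did not pass the test (edgeR adjusted p = 0.0815) but passed it when the clone was a block in the fit (−0.13 ± 0.04 (SE), edgeR adjusted p = 0.00997, with 37.0% of all genes called).

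In Y537S cells ERBB2 measured 256 and 318 CPM with miR-331-3p against 314 and 322 CPM with the mimic control. Only clone 1 lay clearly lower, with per-clone log2 differences of −0.29 and −0.02, and the groups overlapped. The fitted value was −0.12 ± 0.13 (SE) on the log2 scale (edgeR adjusted p = 0.508), and −0.13 with the clone block (edgeR adjusted p = 0.0583). The difference between Y537S and WT cells in the ERBB2 response to miR-331-3p was −0.00 ± 0.14 (SE) and was not called (edgeR adjusted p = 0.996), and DESeq2 and the GC-corrected block gave the opposite sign (0.04 and 0.03).

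Without the clone block or the GC correction, ERBB4 was the only receptor called with miR-331-3p. In Y537S cells it measured 28.6 and 32.7 CPM against 44.4 and 47.1 CPM with the mimic control, and both treated clones lay below both controls. It fell by 31.6% (log2 fold change −0.55 ± 0.12 (SE), edgeR adjusted p = 0.0214), 1 of 4 receptors called where 33.0% of all genes were called and 15.8% called lower. The call was lost without clone 2 of the mimic control (−0.50, edgeR adjusted p = 0.0891), without clone 1 of miR-331-3p (−0.44, edgeR adjusted p = 0.0802) and after correction for the guanine and cytosine (GC) content of transcripts, described below (−0.15, edgeR adjusted p = 0.317).

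In WT cells ERBB4 measured 65.6 and 61.3 CPM with miR-331-3p against 88.3 and 69.8 CPM, again without overlap. The fitted value of −0.29 ± 0.10 (SE) just missed the threshold (edgeR adjusted p = 0.0513) and passed it with the clone block (−0.29, edgeR adjusted p = 0.000342), with DESeq2 (−0.30, adjusted p = 0.0278, with 28.5% of all genes called) and without clone D4 of the mimic control (−0.45, edgeR adjusted p = 0.00194). The decrease in Y537S cells was larger than that in WT cells by 0.27 ± 0.18 (SE), a difference that was not called (edgeR adjusted p = 0.364, with 9.94% of all genes called) except with the clone block (−0.28, edgeR adjusted p = 0.0401, with 34.1% called). Combining the clone block with the GC correction gave −0.04 (edgeR adjusted p = 0.795).

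None of the receptors was called in WT cells with miR-331-3p, where 24.8% of all genes were called. ERBB3 measured 873 and 902 CPM against 971 and 974 CPM, both below control, with a log2 fold change of −0.11 ± 0.05 (SE) (edgeR adjusted p = 0.148, and 0.0356 with the clone block). EGFR measured 17.3 and 16.7 CPM against 12.4 and 16.6 CPM. The per-clone log2 differences of EGFR were 0.49 and 0.00, the fitted value was 0.26 ± 0.15 (SE) (edgeR adjusted p = 0.23), and without clone D4 of the mimic control it was 0.49 and called (edgeR adjusted p = 0.0229). In Y537S cells ERBB3 (log2 fold change 0.06) and EGFR (0.11) did not pass the test, and both took the opposite sign when libraries were scaled by their totals alone.

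MiR-301b-3p was followed by more ERBB2 transcript in all 3 genotypes. In Y537S cells ERBB2 measured 463 and 500.1 CPM against 314 and 322 CPM, in D538G cells 644 and 669 CPM against 489 and 458 CPM, and in WT cells 839 and 860.0 CPM against 699 and 671 CPM. Every treated clone lay above every control clone of its genotype. ERBB2 was up-regulated 1.49-fold in Y537S (log2 fold change 0.58 ± 0.08 (SE), edgeR adjusted p = 0.0311), 1.39-fold in D538G (0.48 ± 0.07 (SE), edgeR adjusted p = 0.00686) and 1.23-fold in WT cells (0.30 ± 0.06 (SE), edgeR adjusted p = 0.028). The background share of genes called higher was 1.23%, 5.29% and 4.63%, and that called in either direction 3.57%, 11.8% and 8.5%.

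The ERBB2 call held in D538G cells with any 1 of the 4 libraries left out (edgeR adjusted p at most 0.018). In Y537S cells it was lost without clone 1 (0.56, edgeR adjusted p = 0.119) or clone 2 (0.60, edgeR adjusted p = 0.0744) of the mimic control or clone 2 of miR-301b-3p (0.52, edgeR adjusted p = 0.0829), and in WT cells without clone D1 (0.33, edgeR adjusted p = 0.192) or D4 (0.27, edgeR adjusted p = 0.261) of the mimic control. The GC correction left values of 0.32, 0.22 and 0.03, none called (edgeR adjusted p = 0.17, 0.176 and 0.85), while with the clone block as well the Y537S and D538G values were called (edgeR adjusted p = 2.11e-10 and 0.00201, with 28.6% and 15.1% of all genes called) and the WT value was not (edgeR adjusted p = 0.645).

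ERBB3, whose 3′UTR holds the miR-301b-3p match shown above, measured 746 and 804 CPM with miR-301b-3p in WT cells against 971 and 974 CPM. Both treated clones lay below both controls. ERBB3 fell by 20.8% (log2 fold change −0.34 ± 0.07 (SE), edgeR adjusted p = 0.0219, with 3.87% of all genes called lower), and the GC correction gave −0.39 (edgeR adjusted p = 0.00442, with 5.07% of all genes called). The call was lost without clone D1 (−0.34, edgeR adjusted p = 0.162) or D4 (−0.33, edgeR adjusted p = 0.143) of the mimic control.

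In the mutants ERBB3 hardly differed from control: it measured 471 and 635 CPM against 497 and 643 CPM in Y537S and 557 and 474 CPM against 590.2 and 491 CPM in D538G cells. The groups overlapped in both, at log2 fold changes of −0.07 ± 0.18 (SE) and −0.06 ± 0.11 (SE) (edgeR adjusted p = 0.875 and 0.74). With the clone block and the GC correction together ERBB3 was called lower in Y537S cells (−0.13, edgeR adjusted p = 0.0165), and in D538G cells it was not (−0.13, edgeR adjusted p = 0.0553).

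ERBB4 measured 68.4 and 58.9 CPM with miR-301b-3p in WT cells against 88.3 and 69.8 CPM, and 28.7 and 23.9 CPM against 31.8 and 30.8 CPM in D538G cells, below control without overlap in both. Neither passed the test (log2 fold change −0.32 ± 0.13 (SE), edgeR adjusted p = 0.152, and −0.25 ± 0.12 (SE), edgeR adjusted p = 0.204), and both passed it with the clone block (edgeR adjusted p = 0.0033 and 0.0333, with 28.2% and 33.3% of all genes called), as did WT without clone D1 of miR-301b-3p (−0.44, edgeR adjusted p = 0.0282). With the GC correction added to the block both were lost, at −0.16 in WT and −0.03 in D538G cells (edgeR adjusted p = 0.0943 and 0.847). In Y537S cells ERBB4 measured 43.0 and 45.7 CPM against 44.4 and 47.1 CPM (−0.07, edgeR adjusted p = 0.747).

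EGFR with miR-301b-3p measured 17.01 and 19.3 CPM in WT cells against 12.4 and 16.6 CPM, without overlap, at a log2 fold change of 0.31 ± 0.16 (SE) that did not pass the test (edgeR adjusted p = 0.259) and did so with the clone block (0.33, edgeR adjusted p = 0.0469). It measured 23.4 and 18.5 CPM in Y537S and 24.97 and 31.6 CPM in D538G cells, where the control clones lay at 23.6 and 16.6 CPM and at 25.1 and 25.8 CPM. These groups overlapped and neither value was called (0.04 and 0.16, edgeR adjusted p = 0.941 and 0.469).

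The miR-301b-3p responses were then compared between genotypes with an interaction term. The difference of ERBB2 from control was 0.29 ± 0.10 (SE) larger in Y537S than in WT cells and 0.18 ± 0.10 (SE) larger in D538G than in WT cells, and that of ERBB3 differed by 0.28 ± 0.21 (SE) and 0.27 ± 0.14 (SE). None of these was called (each edgeR adjusted p = 1, with unadjusted p = 0.019, 0.0972, 0.21 and 0.0678), where 0.00632% and 0.0064% of all genes were called. With the clone block and the GC correction together, the Y537S differences of ERBB2 (0.30, edgeR adjusted p = 0.00196) and ERBB3 (0.27, edgeR adjusted p = 0.0043) and the D538G difference of ERBB3 (0.26, edgeR adjusted p = 0.0145) were called, where 1.73% and 0.954% of all genes were called.

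MiR-181c-5p was followed by more ERBB2 and more ERBB3. In WT cells ERBB3 measured 1256 and 1195 CPM against 971 and 974 CPM, and ERBB2 measured 816 and 819.8 CPM against 699 and 671 CPM. Treated clones lay above control clones for both. ERBB3 was up-regulated 1.25-fold (log2 fold change 0.33 ± 0.06 (SE), edgeR adjusted p = 0.00719) and ERBB2 1.19-fold (0.25 ± 0.06 (SE), edgeR adjusted p = 0.0246), 2 of 4 receptors where 16.4% of all genes were called and 8.1% called higher. The ERBB2 call was lost without clone D1 (0.28, edgeR adjusted p = 0.108) or D4 (0.21, edgeR adjusted p = 0.173) of the mimic control or clone D4 of miR-181c-5p (0.22, edgeR adjusted p = 0.0679), and the ERBB3 call without clone D1 of the mimic control (0.32, edgeR adjusted p = 0.0563).

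In D538G cells ERBB2 measured 598 and 601 CPM with miR-181c-5p against 489 and 458 CPM, and ERBB3 696 and 649 CPM against 590.2 and 491 CPM, again without overlap. ERBB2 was up-regulated 1.28-fold (log2 fold change 0.35 ± 0.07 (SE), edgeR adjusted p = 0.0135, with 9.52% of all genes called and 5.58% called higher). The ERBB3 value, 0.33 ± 0.09 (SE), was that of WT cells to 2 decimals but just missed the threshold (edgeR adjusted p = 0.0514), and it passed with the clone block (edgeR adjusted p = 4.85e-09, with 29.3% of all genes called), with DESeq2 (adjusted p = 0.0101, with 15.9% called) and without clone A5 of the mimic control (0.47, edgeR adjusted p = 0.00266). The ERBB2 call was lost without clone C2 of the mimic control (0.30, edgeR adjusted p = 0.0815) or of miR-181c-5p (0.35, edgeR adjusted p = 0.0646).

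The GC correction separated the 2 receptors. It took ERBB2 with miR-181c-5p to −0.01 in WT and 0.08 in D538G cells (edgeR adjusted p = 0.952 and 0.622), and left ERBB3 at 0.26 in WT cells (edgeR adjusted p = 0.026, with 6.99% of all genes called) and 0.27 in D538G cells (edgeR adjusted p = 0.197, and 1.31e-06 with the clone block as well, with 16.6% called). The ERBB2 and ERBB3 responses differed between D538G and WT cells by 0.11 ± 0.09 (SE) and 0.00 ± 0.11 (SE), neither called, where 0.00646% of all genes were called.

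The scarce receptors showed no call with miR-181c-5p. ERBB4 measured 66.1 and 58.4 CPM in WT cells against 88.3 and 69.8 CPM, below control without overlap (log2 fold change −0.35 ± 0.11 (SE), edgeR adjusted p = 0.0588). It passed the threshold with the clone block (−0.34, edgeR adjusted p = 0.00119, with 27.9% of all genes called), with DESeq2 (adjusted p = 0.0199, with 22.1% called), without clone D4 of the mimic control (−0.52, edgeR adjusted p = 0.0207) and without clone D1 of miR-181c-5p (−0.44, edgeR adjusted p = 0.0235), and adding the GC correction to the block ended the call (−0.16, edgeR adjusted p = 0.182). ERBB4 in D538G cells (30.9 and 28.6 CPM against 31.8 and 30.8 CPM) and EGFR in both genotypes overlapped their controls, with EGFR at 15.6 and 17.6 CPM in WT and 25.5 and 28.7 CPM in D538G cells.

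With the let-7f-5p inhibitor in Y537S cells none of the 4 receptors, and 0.0% of all genes, was called by edgeR; 786 genes had an unadjusted p under 0.05 and DESeq2 called 79. ERBB2 measured 364 and 369 CPM against 337 and 339 CPM with the inhibitor control, slightly above without overlap (log2 fold change 0.11 ± 0.06 (SE), edgeR adjusted p = 1). With the clone block ERBB2 was called (0.11 ± 0.03 (SE), edgeR adjusted p = 0.0195, with 11.2% of all genes called). ERBB4 measured 35.3 and 33.9 CPM against 37.9 and 39.4 CPM (−0.16 ± 0.09 (SE), edgeR adjusted p = 1), and the other two overlapped their controls.

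The background for these small values is the difference between both negative controls in Y537S cells, in which no receptor and 0.0% of all genes was called. ERBB4 measured 37.9 and 39.4 CPM with the inhibitor control against 44.4 and 47.1 CPM with the mimic control, without overlap (log2 fold change −0.25 ± 0.09 (SE), edgeR adjusted p = 0.67, and 0.0132 with the clone block, with 16.7% of all genes called). ERBB2 measured 337 and 339 CPM against 314 and 322 CPM between the same controls, also without overlap (0.09 ± 0.07 (SE)). The control difference of ERBB4 was thus near the size of several ERBB4 differences given above, among them −0.29 with miR-331-3p in WT cells and −0.25 with miR-301b-3p in D538G cells. The called ERBB4 difference with miR-331-3p in Y537S cells, −0.55, was larger but was taken against these same mimic control libraries.

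**Figure D3:**
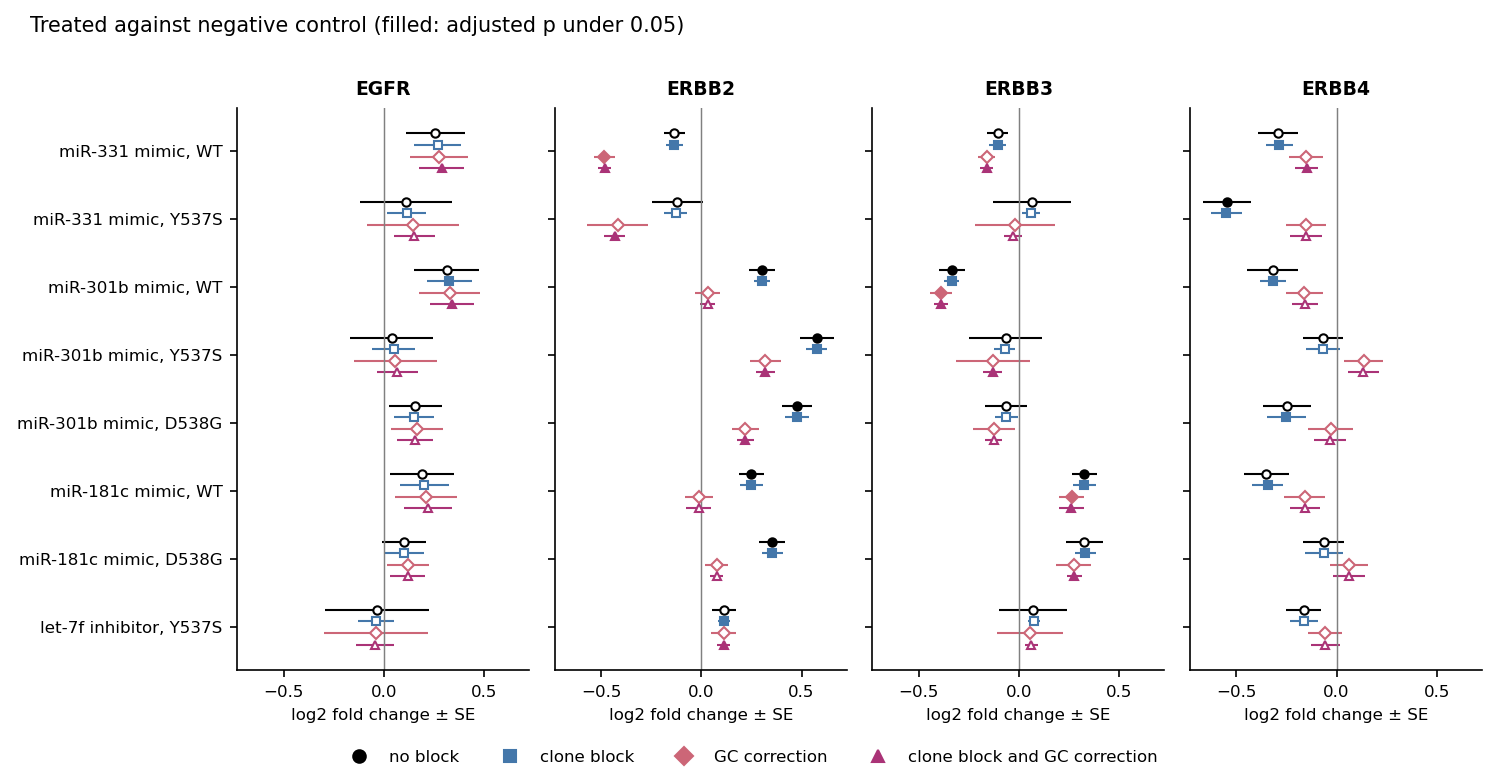
Log2 fold change against the matching negative control (horizontal axis, bars ± SE) of each receptor in the 8 comparisons, without and with the clone block and the GC correction. Filled points were called; ERBB2 with miR-301b-3p moves from 0.30 to 0.03 in WT cells and with miR-331-3p from −0.14 to −0.48 in WT cells under the GC correction.

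Fold changes followed the GC content of transcripts in these comparisons, and the receptors differ in it: 60.4% for ERBB2, 51.3% for ERBB3, 47.8% for EGFR and 39.6% for ERBB4. Each receptor was therefore set beside the genes whose GC content lay within 2 percentage points of its own. With miR-331-3p in WT cells the 1629 genes like ERBB2 had a median log2 fold change of 0.30 and 39.6% of them were called higher. ERBB2, at −0.14 and itself not called in this fit, lay above only 6.57% of them, and 0.491% of them were called lower.

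In Y537S cells with miR-331-3p the median of 1618 such genes was 0.44, and 37.3% were called higher and 6.61% lower. ERBB2, at −0.12 and not called, lay above 21.1% of them. After the GC correction ERBB2 was called lower in WT cells (−0.48 ± 0.05 (SE), edgeR adjusted p = 0.00101, with 7.49% of all genes called) and not in Y537S cells (−0.42 ± 0.15 (SE), edgeR adjusted p = 0.109). With the clone block as well it was called in both (−0.48 ± 0.03 (SE), edgeR adjusted p = 1.94e-45, and −0.43 ± 0.05 (SE), edgeR adjusted p = 2.53e-16), where 23.0% and 55.9% of all genes were called. As with every blocked fit, such small p values rest mostly on variance shared over genes and do not measure the spread between clones.

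For the rises of ERBB2 the genes of like GC content moved the same way. Their median was 0.24, 0.25 and 0.24 with miR-301b-3p in Y537S, D538G and WT cells, and ERBB2 lay above 85.6%, 83.4% and 63.9% of them. In the same order 2.74%, 13.5% and 10.9% of them were called higher. With miR-181c-5p the medians were 0.24 in D538G and 0.23 in WT cells, ERBB2 lay above 73.4% and 53.9%, and 13.2% and 20.8% were called higher. ERBB4, the receptor with the lowest GC content, stood beside genes that were lower: with miR-331-3p their median was −0.33 in Y537S and −0.17 in WT cells, and ERBB4 lay above 30.1% and 25.7% of them.

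ERBB3, of middle GC content, stood beside genes whose median lay near 0. With miR-301b-3p in WT cells that median was 0.01 and ERBB3 lay above 7.96% of the genes, and with miR-181c-5p the medians were 0.05 in WT and 0.01 in D538G cells and ERBB3 lay above 86.5% and 89.8%. The part of GC content in any single receptor's change was not tested beyond these values and the corrected fits. The genotype calls of the 4 receptors with the mimic control were the same with the correction, which was not run for genotypes compared within a mimic.

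**Figure D4:**
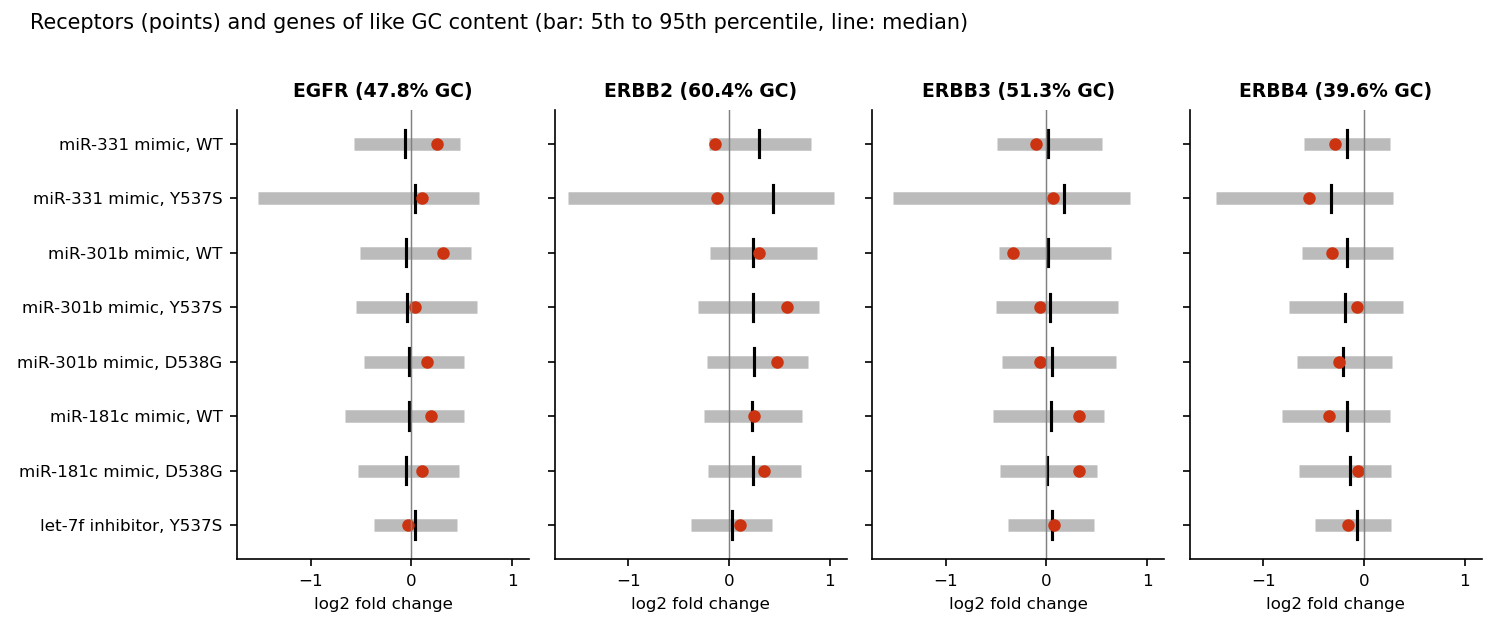
Log2 fold change of each receptor (points) in the treatment comparisons beside the genes whose GC content lay within 2 percentage points (bars from the 5th to the 95th percentile, with the median marked). With miR-331-3p in WT cells ERBB2 at −0.14 lies near the lower end of a bar from −0.20 to 0.82, and with miR-301b-3p in WT cells ERBB3 at −0.34 lies in the lower part of its bar.

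Reads from overlapping genes limit these values. EGFR overlaps EGFR-AS1 on the opposite strand, ERBB2 overlaps PGAP3, MIEN1 and the microRNA gene MIR4728, and ERBB4 overlaps MIR548F2. ERBB3 overlaps ENSG00000257411, a protein-coding gene on the same strand that was not found among the genes counted. The strand setting of the counting is not given in the sources used here, so the share of reads that belongs to each overlapping gene is uncertain.

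Genes linked to the receptors were read from 8 lists of 105 genes in all, each described by its calls and its median log2 fold change. Of these genes, 15 were listed only for their position beside ERBB2 on 17q12, and the totals below include them. In the treatment comparisons and those between genotypes with the mimic control the median of all genes lay between −0.01 and 0.01.

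The counts that follow are read against the share of all genes called. With miR-331-3p that share was 33.0% in Y537S (17.2% higher, 15.8% lower) and 24.8% in WT cells (14.2% and 10.6%), and 34 of 88 and 37 of 94 listed genes tested were called. With miR-301b-3p it was 3.57% in Y537S (1.23% and 2.34%), 11.8% in D538G (5.29% and 6.49%) and 8.5% in WT cells (4.63% and 3.87%), and 9 of 91, 17 of 89 and 18 of 93 listed genes were called. With miR-181c-5p it was 9.52% in D538G (5.58% and 3.95%) and 16.4% in WT cells (8.1% and 8.28%), beside 16 of 89 and 25 of 92 listed genes. Between genotypes with the mimic control it was 29.0% for Y537S (16.3% and 12.7%) and 38.9% for D538G against WT cells (20.4% and 18.5%), beside 36 of 92 and 46 of 91 listed genes.

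The clone block raised the calls among the listed genes to 58 with miR-331-3p in Y537S cells (60.7% of all genes called), to 44, 36 and 41 with miR-301b-3p in Y537S, D538G and WT cells (38.4%, 33.3% and 28.2%) and to 37 and 40 with miR-181c-5p in D538G and WT cells (29.3% and 27.9%). It gave 11 with the let-7f-5p inhibitor (11.2% of all genes called), where 0 were called without it, and 45 with miR-331-3p in WT cells (37.0%). The GC correction left 18 and 14 with miR-331-3p in Y537S and WT cells, 0, 3 and 11 with miR-301b-3p in Y537S, D538G and WT cells and 5 and 15 with miR-181c-5p in D538G and WT cells. Over all genes the corrected fits called 3381 of 14877 and 1134 of 15140 with miR-331-3p in Y537S and WT cells. For miR-301b-3p they called 25 of 15145, 215 of 14845 and 766 of 15113 in Y537S, D538G and WT cells. For miR-181c-5p they called 279 of 14826 and 1047 of 14968 in D538G and WT cells.

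Ligands were scarce. TGFA had a median of 18.6 CPM over 24 libraries, EGF 10.6, EPGN 4.55, HBEGF 2.25, NRG4 1.63 and BTC 0.456, while AREG had 1 to 64 counts, EREG 0 to 12, and NRG1, NRG2 and NRG3 a median of 0 counts. In each treatment comparison 6 or 7 of the 11 ligands could be tested and 0 were called. With the clone block, TGFA was called lower with miR-301b-3p in Y537S cells (log2 fold change −0.40, edgeR adjusted p = 0.0014, with 38.4% of all genes called). EGF and NRG4 were called lower with miR-331-3p in the same cells (−0.51 and −1.16, edgeR adjusted p = 0.00195 and 0.042, with 60.7% called). Under the block AREG was called lower with the let-7f-5p inhibitor (−3.46, edgeR adjusted p = 0.000349, with 11.2% of all genes called). It was also called higher in the inhibitor control than in the mimic control (2.72, edgeR adjusted p = 0.00113, with 16.7% called). Both AREG values rest on the same inhibitor control libraries, and AREG had a median of 8 counts over 24 libraries. Between genotypes, EGF was down-regulated in D538G relative to WT cells (log2 fold change −1.04, edgeR adjusted p = 0.00182) and EPGN in both mutants (−1.47 in Y537S, edgeR adjusted p = 0.00186, and −1.36 in D538G, edgeR adjusted p = 0.00602).

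Among 9 shedding proteases and chaperones, which release ligands and receptor ectodomains or fold the kinases, ADAM9 was the gene that fell in 5 comparisons. This membrane protease measured 508.9 ± 29.6 CPM (SD, n = 2) with the mimic control in WT cells, 244 ± 0.087 with miR-301b-3p and 325 ± 0.83 with miR-331-3p. With miR-301b-3p it was down-regulated in Y537S (log2 fold change −1.44, edgeR adjusted p = 0.0214), D538G (−0.82, edgeR adjusted p = 0.00238) and WT cells (−1.07, edgeR adjusted p = 0.0009), and with miR-331-3p in Y537S (−0.98, edgeR adjusted p = 0.00808) and WT cells (−0.62, edgeR adjusted p = 0.000117); after the GC correction the Y537S value with miR-301b-3p was −1.21 and not called (edgeR adjusted p = 0.0579). All 9 were tested; 0 rose and 1 fell with miR-301b-3p in Y537S, 2 and 1 in D538G, 3 and 1 in WT cells, 3 and 1 with miR-331-3p in both genotypes, and 2 and 0 or 3 and 0 with miR-181c-5p in D538G or WT cells. RHBDF1, a regulator of the sheddase ADAM17, was among the genes that rose, by 0.45 with miR-301b-3p in D538G and 0.55 with miR-331-3p in WT cells (edgeR adjusted p = 0.013 and 0.00027), and it was at 0.14 and 0.09 and not called after the GC correction.

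The 18 negative regulators and turnover genes, ubiquitin ligases, phosphatases and inhibitors that end receptor signaling, moved in both directions. With miR-331-3p 5 rose and 6 fell in Y537S cells (median −0.17) and 3 rose and 5 fell in WT cells (median −0.10), where 17.2% and 15.8%, and 14.2% and 10.6%, of all genes rose and fell. STUB1, a ligase that directs misfolded ERBB2 to degradation, rose by 1.03 and 0.68 (edgeR adjusted p = 0.00665 and 0.000578), with 0.69 and 0.18 after the GC correction, the latter not called. With miR-301b-3p 0 rose and 4 fell in Y537S, 1 rose and 3 fell in D538G and 1 rose and 3 fell in WT cells (medians 0.06, 0.05 and −0.03). WWP1, a ligase of the NEDD4 family that acts on ERBB4, was among those that fell in all 3 (−0.89, −0.62 and −0.79, edgeR adjusted p = 0.0214, 0.00679 and 0.00537); the Y537S call was lost without clone 1 of the mimic control (edgeR adjusted p = 0.0608), and both mutant calls after the GC correction (−0.71 and −0.43, edgeR adjusted p = 0.0622 and 0.0599). With miR-181c-5p 3 rose and 3 fell in D538G and 5 rose and 4 fell in WT cells (medians 0.07 and 0.07), and the phosphatase PTPN1 rose in both (0.56 and 0.66, edgeR adjusted p = 0.00411 and 0.000387).

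Among 21 adaptors and first effectors, which dock on the phosphorylated receptors, 6 rose and 3 fell with miR-331-3p in Y537S and 5 rose and 4 fell in WT cells (medians 0.08 and 0.01), beside 33.0% and 24.8% of all genes called. PLCG1, a phospholipase bound by activated EGFR, fell in both (−1.18 and −0.53, edgeR adjusted p = 0.00638 and 0.000531). With miR-301b-3p 2 rose and 1 fell in Y537S, 4 rose and 3 fell in D538G and 5 rose and 1 fell in WT cells (medians 0.25, 0.20 and 0.10). With miR-181c-5p 3 rose and 1 fell in D538G and 4 rose and 3 fell in WT cells (medians 0.05 and 0.03). PIK3R3, a regulatory subunit of PI3K, fell with miR-181c-5p in D538G and WT cells (−0.46 and −0.60, edgeR adjusted p = 0.0069 and 0.000527). Its 3′UTR held 2 matches to that seed. For listed genes outside the receptors, the share of 3′UTRs of like length with as many matches is not given here. Among other genes named from the lists, ADAM9 and PLCG1, which fell, and WWP1, which fell with miR-301b-3p, held 0 matches to the mimic concerned, as did RHBDF1, PTPN1 and GRB7, which rose. STUB1 and DUSP4, which rose with miR-331-3p, held 1 match each to its seed.

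The membrane partners and scaffolds included ERBB2IP (Erbin), which binds ERBB2 and whose 3′UTR held 2 matches to miR-301b-3p and 1 to miR-331-3p. ERBB2IP fell with miR-301b-3p in Y537S, D538G and WT cells (−0.63, −0.60 and −0.69, edgeR adjusted p = 0.0451, 0.00643 and 0.00468) and with miR-331-3p in Y537S and WT cells (−0.92 and −0.43, edgeR adjusted p = 0.012 and 0.000669). The Y537S call with miR-301b-3p was lost in 3 of the 4 fits that left out 1 library (edgeR adjusted p up to 0.138), and after the GC correction it was called in WT cells alone with each mimic. Of 6 or 7 partners tested, 3 rose and 1 fell with miR-331-3p in Y537S cells, 3 rose and 2 fell in WT cells, 0 rose and 1 fell with miR-301b-3p in both mutants, 1 rose and 1 fell in WT cells, and 1 rose with miR-181c-5p in each genotype.

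Of the ERK feedback and immediate-early genes, 12 to 14 could be tested. With miR-331-3p 1 rose in Y537S and 4 rose and 1 fell in WT cells (medians 0.37 and 0.31), among them DUSP4, a phosphatase of ERK, at 1.12 and 0.87 (edgeR adjusted p = 0.0299 and 0.00557). The Y537S value of DUSP4 was 0.69 without clone 1 of miR-331-3p, and it was called in each of the 4 fits that left out 1 library. With miR-301b-3p 0 were called in the mutants and 1 fell in WT cells, and with miR-181c-5p 1 rose in each genotype. DUSP4 was also higher in Y537S (1.39, edgeR adjusted p = 0.00204) and D538G cells (1.33, edgeR adjusted p = 0.000209) than in WT cells with the mimic control. In that comparison 2 genes of the list were higher and 3 lower in Y537S, and 2 were higher and 5 lower in D538G cells.

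Transcription factors reported at ERBB2 or ERBB3, 8 genes, held few calls: 0 to 1 rose and 0 to 1 fell in any treatment comparison. ESR1 was the one that fell, with miR-301b-3p in D538G and WT cells (−0.87 and −0.70, edgeR adjusted p = 0.00466 and 0.00321), with miR-181c-5p in D538G and WT cells (−0.60 and −0.66, edgeR adjusted p = 0.0074 and 0.000496) and with miR-331-3p in WT cells (−0.36, edgeR adjusted p = 0.00253). In Y537S cells ESR1 was at −0.96 with miR-301b-3p and −0.33 with miR-331-3p, neither called (edgeR adjusted p = 0.092 and 0.388) but both called with the clone block (edgeR adjusted p = 6.65e-34 and 1.98e-05). Its 3′UTR held 2 matches to miR-301b-3p and 1 each to miR-181c-5p and miR-331-3p. Over all 3′UTRs, of any length, 14.2%, 19.5% and 14.1% held at least 1 match to these seeds. ESR1 was higher in Y537S (0.88, edgeR adjusted p = 0.00907, and 0.56 without Y537S clone 1 of the mimic control) and D538G (1.04, edgeR adjusted p = 1.2e-05) than in WT cells. TFAP2A, an AP-2 factor, was lower in Y537S cells (−0.57, edgeR adjusted p = 0.00156).

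ERBB2 lies on chromosome 17q12 beside GRB7, STARD3 and MIEN1, and 8 to 12 of 15 neighbours could be tested. GRB7, an adaptor that binds ERBB2, measured 17.1 ± 0.40 CPM (SD, n = 2) with the mimic control, 24.7 ± 1.96 with miR-301b-3p and 23.0 ± 0.92 with miR-181c-5p in D538G cells. It was up-regulated with miR-301b-3p in D538G and WT cells (0.53 and 0.51, edgeR adjusted p = 0.0246 and 0.0312) and with miR-181c-5p in both (0.43 and 0.41, edgeR adjusted p = 0.0456 and 0.0194). Each of these 4 calls was lost in 2 to 4 of the 4 fits that left out 1 library (edgeR adjusted p up to 0.211) and none was called after the GC correction. Of the neighbours, 0 rose and 0 fell with miR-301b-3p in Y537S, 2 and 0 in D538G and 1 and 0 in WT cells, 2 and 0 or 3 and 0 with miR-181c-5p in D538G or WT cells, and 2 and 2 or 4 and 2 with miR-331-3p in Y537S or WT cells.

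Relative to WT cells with the mimic control, 2 of 11 neighbours of ERBB2 were higher and 5 lower in Y537S (median −0.65), and 3 of 10 were higher and 4 lower in D538G cells (median −0.38), where 16.3% and 12.7%, and 20.4% and 18.5%, of all genes were higher and lower. GSDMB, a gasdermin, was lower in both (−1.40 and −1.19, edgeR adjusted p = 0.00107 and 0.00052), and MIEN1, which overlaps ERBB2, was higher in D538G cells (0.62, edgeR adjusted p = 0.000578). Against the same shares, adaptors were higher in 2 and lower in 6 of 21 in Y537S and higher in 3 and lower in 7 in D538G cells, and negative regulators higher in 3 and lower in 2 of 18 and higher in 4 and lower in 5. Transcription factors were higher in 1 and lower in 3 of 8 in each mutant, proteases and chaperones higher in 1 and lower in 2 of 9 in Y537S and in 2 and 2 in D538G cells, and partners higher in 2 and lower in 2 of 7 in each.

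Across the 24 libraries the receptors were set against each other on log2 CPM, as a description, since libraries of a genotype share their clones and controls. EGFR ran opposite to ERBB4 (Pearson r = −0.81) and ERBB3 (r = −0.75), and ERBB3 ran with ERBB4 (r = 0.76) and ERBB2 (r = 0.62). With the mean of each genotype removed, the last pair of values was 0.07 and 0.10, and the first pair −0.46 and −0.60. Among 10063 genes the ones most like ERBB2 were KIAA1147 (r = 0.98), ZC3H12A, EFNA1, PPIL2 and PPP2R5B, and those most like ERBB3 were KDM6A (r = 0.95), RANBP10, GNPTAB, P4HA1 and SNX27. For EGFR they were SH3RF2 (r = 0.94), FSTL3, DNAJC17, ZNF629 and HDAC6, and for ERBB4 METTL7A (r = 0.95), CCDC53, PDP1, CNOT2 and MYRFL.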

How the data were processed

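According to the study's methods, the authors prepared stranded poly-A libraries, sequenced them on a NovaSeq, used HISAT2 for alignment to hg19 and obtained gene counts with featureCounts (Subread); versions and the strand setting are not given in the sources used here. What the authors deposited are raw gene counts without normalization. The 4 receptors and the 8 gene lists were chosen with earlier results of these data known, some labels write Y573S for Y537S, and 0 columns were left unused.

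Each comparison was fitted on all genes with edgeR 4.0.16 in R 4.3.3: TMM scaling, filterByExpr and the two-sided quasi-likelihood F test on the libraries of its groups, with Benjamini-Hochberg adjustment over all genes tested and a threshold of 0.05. The SE is the log2 fold change divided by the square root of F. CPM values are on 1 TMM scale over 24 libraries (log2 with a prior count of 2), and RPKM divides them by the canonical transcript length. A 2 against 2 exact permutation test cannot go below p = 0.333, so none was used. The script was checked on simulated data. Alternatives were DESeq2 1.42.0, other scalings, no filter, a clone block, a lowess GC correction (span 0.3), wider fits and leaving out each library.

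Clones pair libraries because the same clone received each treatment; the difference between clones correlated across genes between treated and control libraries at 0.43 to 0.49 in Y537S, 0.15 to 0.17 in D538G and 0.12 to 0.18 in WT cells. Column headings name WT clones D1 and D4 and D538G clones A5 and C2, which the labels number, so these columns were assigned to conditions only. The variance between replicates, averaged over genes, was 10.7 to 45.6 times that of counting noise. Gene symbols were matched to GENCODE 44 on hg19 for 22494 genes and by synonym for 1363, and 2507 were not matched; GC content was missing for 9.51% of genes. In each list and comparison the rule allowed up to 2 called genes with the smallest p to be named, besides the receptors, ligands and ESR1. Figures used Python 3.11.15 and matplotlib 3.10.9.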

Additional observations from a re-analysis of the deposited data

How the results depend on the processing

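Of the differences for single receptors, 251 of 320 fits with 1 library left out and 381 of 440 fits under other settings kept the direction and the side of the threshold; 43 and 17 changed sign. Counts of receptors called moved as follows, and the cause was not tested. The clone block, which pairs libraries, gave 1 with the let-7f-5p inhibitor (0 before), 2 (from 1) with miR-301b-3p and with miR-181c-5p in D538G cells, 4 (from 2) with miR-301b-3p and 3 (from 0) with miR-331-3p in WT cells, 1 (from 0) between the controls and 1 (from 0) for the miR-331-3p response; it ended no call. The GC correction gave 0 (from 1) with both mimics in Y537S and both in D538G cells, and 1 in WT cells with miR-301b-3p, miR-331-3p and miR-181c-5p (from 2, 0 and 2). Both together gave 2 with miR-301b-3p in Y537S, 4 with miR-331-3p and 1 with miR-181c-5p in WT cells, 1 with the inhibitor and between the controls, and 2 and 1 for the miR-301b-3p response in Y537S and D538G cells. DESeq2 and no filter gave 2 each with miR-181c-5p in D538G cells, and 2 and 1 with miR-331-3p in WT cells. Leaving out 1 library gave 0 to 1 with both mimics in Y537S cells, 0 to 2 with miR-181c-5p in D538G and miR-331-3p in WT cells, and 0 to 3 with miR-301b-3p or miR-181c-5p in WT cells and between the mutants.

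Signs that changed, on the log2 scale, were those of ERBB4 with miR-301b-3p in Y537S (0.13 with the GC correction, with or without the block) and with miR-181c-5p in D538G cells (0.062 and 0.063, with and without the block), ERBB2 with miR-181c-5p in WT cells (−0.013 in both) and between the controls (−0.030 and −0.031), and ERBB3 with miR-331-3p in Y537S cells (−0.020 without and −0.028 with the block, and −0.10 with library totals, where EGFR was at −0.055). The ERBB2 response to miR-331-3p was 0.041 with DESeq2 and RLE scaling and 0.033 with block and GC correction, and the ERBB3 response to miR-181c-5p was −0.0061 with DESeq2 and −0.0059 with RLE scaling. With 1 library left out, EGFR ranged from −0.19 to 0.32 (miR-301b-3p), −0.12 to 0.39 (miR-331-3p), −0.36 to 0.23 (let-7f-5p inhibitor) and −0.23 to 0.30 (controls) in Y537S, −0.021 to 0.31 (miR-301b-3p) in D538G and −0.012 to 0.41 (miR-181c-5p) in WT cells. ERBB3 ranged from −0.30 to 0.14, −0.16 to 0.29, −0.11 to 0.29 and −0.14 to 0.28 in the same 4 Y537S comparisons, −0.19 to 0.073 with miR-301b-3p in D538G cells and −0.11 to 0.28 between the mutants, and ERBB2 with miR-331-3p in Y537S cells from −0.26 to 0.045. The responses ranged, for miR-331-3p, from −0.42 to 0.10 (EGFR), −0.18 to 0.13 (ERBB2) and −0.10 to 0.36 (ERBB3), for miR-301b-3p from −0.50 to 0.013 (EGFR, Y537S), −0.39 to 0.048 (EGFR, D538G) and −0.10 to 0.23 (ERBB4, D538G), and for miR-181c-5p from −0.32 to 0.11 (EGFR) and −0.12 to 0.14 (ERBB3).

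With merged exons the median levels were 1.18 RPKM for EGFR, 53.2 for ERBB2, 56.6 for ERBB3 and 3.17 for ERBB4. With genotype means removed, 2, 1, 1 and 0 of the 5 genes most like EGFR, ERBB2, ERBB3 and ERBB4 were shared. The naming rule given above yielded 118 calls of listed genes, those with the smallest p and not all calls in the lists. Of these, 42 of the 113 that could be tested were lost with the GC correction and 45 in at least 1 fit without 1 library. The counts over all listed genes are given with the lists. Counts over all genes moved too. With miR-301b-3p in Y537S cells edgeR called 541 genes, against 5819 with the block, 25 with the GC correction, 4335 with both, 1738 with DESeq2 and 1430 with all conditions of the genotype in 1 fit. The block raised the calls from 4913 to 9035 with miR-331-3p in Y537S, from 1750 to 4941 and 1412 to 4341 with miR-301b-3p and miR-181c-5p in D538G, and from 1284 to 4269 and 2452 to 4173 with miR-301b-3p and miR-181c-5p in WT cells; the GC correction lowered them in the last 4 to 215, 279, 766 and 1047, and from 3755 to 1134 with miR-331-3p in WT cells. Without a filter 2871, 2438 and 2639 genes were called with miR-301b-3p in D538G, miR-181c-5p in D538G and miR-301b-3p in WT cells. Library totals alone moved the median of all genes to −0.17 with miR-331-3p in Y537S cells and the share of calls that were higher from 52.2% to 33.5%, and with miR-301b-3p there from 34.4% to 45.8%. The GC correction moved that share from 34.4% to 24.0% and 44.9% to 33.0% with miR-301b-3p in Y537S and D538G, from 58.6% to 29.0% with miR-181c-5p in D538G, and from 54.4% to 27.3%, 57.2% to 32.7% and 49.5% to 36.3% with miR-301b-3p, miR-331-3p and miR-181c-5p in WT cells. The lowest depth was that of EGFR, with 451 to 1320 counts in a library.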
